A study of Mus musculus with 20 samples.

Results

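The change in ribosome-bound mRNA beyond the change in total RNA was measured in mouse oocytes that had reached metaphase I, 8 h into the first meiotic division, set against oocytes still arrested in prophase I at 0 h. For each gene it is a difference of differences on the log2(value + 1) scale. The ribosome-bound value at 0 h is taken from that at 8 h, and the same difference in total RNA is then subtracted. Genes had to be listed in both the ribosome-bound and the total RNA table, which held for 7346 of the 8114 genes listed in either. Another 197 genes were in the ribosome-bound table alone and 571 in the total RNA table alone, and these were not compared. Each of the 4 groups, ribosome-bound at 8 h, ribosome-bound at 0 h, total RNA at 8 h and total RNA at 0 h, held 2 libraries. All oocytes came from PMSG-primed three-week old females of the C57BL/6 strain that carried RiboTag and Zp3-Cre, so every group shares the tagged ribosome. Zp3-Cre acts in the growing oocyte, so the tag is carried by the oocyte's own ribosomes, whereas total RNA holds whatever was collected. The immunoprecipitate also held RNA that is not on tagged ribosomes, such as the mitochondrially encoded transcripts given further on. Oocytes were stripped of cumulus cells, kept in prophase with the phosphodiesterase inhibitor cilostamide, and moved to medium without it for the later times. Each sample held 200 oocytes. The labels do not say whether the duplicates came from separate mice or cultures, so each p-value reflects no more than the scatter of these samples, which may be technical. One label field names the total RNA samples ribosome-bound too. Their titles and the design text call them input and total RNA, and these were followed.

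A fully grown oocyte no longer transcribes, and the proteins it needs for its divisions are made from mRNAs stored during growth. Many stored mRNAs have short poly(A) tails and few ribosomes until meiosis resumes. Cytoplasmic polyadenylation elements, short U-rich motifs near the 3′ end that the CPEB proteins bind, then allow tail lengthening and translation of one set of mRNAs, while another set is deadenylated and leaves the ribosomes. A value for ribosome-bound mRNA moves with both the amount of an mRNA and the share of it on ribosomes, and subtracting the total RNA change is meant to leave the second. Each library was scaled to a similar total, so every change is relative to the other genes. A rise or fall on ribosomes shared by all genes would not show.

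The 8 libraries held between 27571236 and 42984406 reads in listed genes, as inferred from the smallest step between values, and a value of 10 scaled CPM stood for 282 to 432 reads. Replicates correlated across genes with r of 0.972 on ribosomes at 8 h, 0.950 on ribosomes at 0 h, 0.958 in total RNA at 8 h and 0.972 in total RNA at 0 h (log2 values; genes are not independent replicates). All 15 oocyte markers were listed in the ribosome-bound table and 14 in the total RNA table, where Figla was not listed. Their summed level on ribosomes was 26445 and 30215 scaled CPM at 8 h, against 54447 and 44197 at 0 h. In total RNA the sum was 18882 and 17624 at 8 h, against 18130 and 17643 at 0 h. Of 24 granulosa and cumulus markers, 5 were in the ribosome-bound table (Cyp19a1, Fshr, Has3, Nr5a2 and Serpine2), and Amh, Foxl2, Cyp11a1 and Fst were not listed in either table. The 5 summed to 585 and 589 at 8 h and to 287 and 273 at 0 h on ribosomes. The 8 listed in total RNA summed to 495 and 683 at 8 h and to 484 and 408 at 0 h. Of 19 markers of blood, stroma and endothelium only Pecam1 and Tek were listed, and neither haemoglobin genes nor Ptprc were. The 9 mitochondrially encoded genes, which cytosolic ribosomes do not translate, summed on ribosomes to 2739 and 1330 at 8 h and to 1193 and 801 at 0 h. The 11 listed in total RNA summed to 29794 and 23760 at 8 h and to 26648 and 26929 at 0 h. The part of these shifts in the gene results was not tested. Every sample held the same number of oocytes, and the oocyte marker sum was lower at 8 h on ribosomes but overlapped in total RNA. For other cell types the number of cells is not given. Since the samples are bulk RNA, fewer cells of such a type and less RNA per cell cannot be told apart.

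At metaphase I, genes had moved on ribosomes in both directions beyond their total RNA, relative to the other genes. Of the 7346 genes, 1543 (21.0%) changed on ribosomes beyond total RNA at a Benjamini-Hochberg adjusted p of 0.05 in limma. Of these, 850 were higher at 8 h, or 11.6% of all genes, and 693 were lower, or 9.43%. The change was at least 2-fold (a log2 of 1) for 600 of the higher and 460 of the lower genes, which is 8.17% and 6.26% of all genes. The median over all genes was -0.03, and the central 90% of genes lay between -1.34 and 1.46 on the log2 scale. For the 850 higher genes, the median level on ribosomes was 171 scaled CPM at 8 h, against 73.1 at 0 h, and in total RNA it was 122 at 8 h, against 123 at 0 h. For the 693 lower genes, the median on ribosomes was 66.5 at 8 h, against 145 at 0 h, and in total RNA it was 97.2 at 8 h, against 90.3 at 0 h. Because the groups hold 2 libraries each, the sign was recomputed for all 16 choices of 1 library per group. It was the same in all 16 for 847 of the 850 higher genes, for 688 of the 693 lower genes and for 44.6% of all genes. The choices reuse the libraries that gave the calls, so the agreement of called genes was largely fixed by their selection. It is not independent support. Leaving out 1 library at a time gave 620 to 827 higher and 445 to 664 lower genes. The lower count was 445 without replicate 1 of total RNA at 8 h and 447 without replicate 1 of total RNA at 0 h.

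The difference has a ribosome-bound term and a total RNA term, and both were tested in the same fit. On ribosomes alone 3393 genes (46.2%) changed between 8 h and 0 h, 1671 of them higher (22.7%) and 1722 lower (23.4%). In total RNA alone 273 genes (3.72%) changed, 64 higher (0.871%) and 209 lower (2.85%). These terms make up the difference and use its own libraries, so the following counts describe which term passed and are not independent support. Of the 850 higher genes, 783 (92.1%) rose on ribosomes and did not pass in total RNA, 22 rose in both, and 29 had fallen in total RNA. The remaining 16 passed in neither term alone. Of the 693 lower genes, 620 (89.5%) fell on ribosomes and did not pass in total RNA, 24 fell in both, 9 had risen in total RNA and 40 passed in neither term alone. A gene that did not pass in total RNA is not thereby shown to be stable there.

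**Figure D1:**
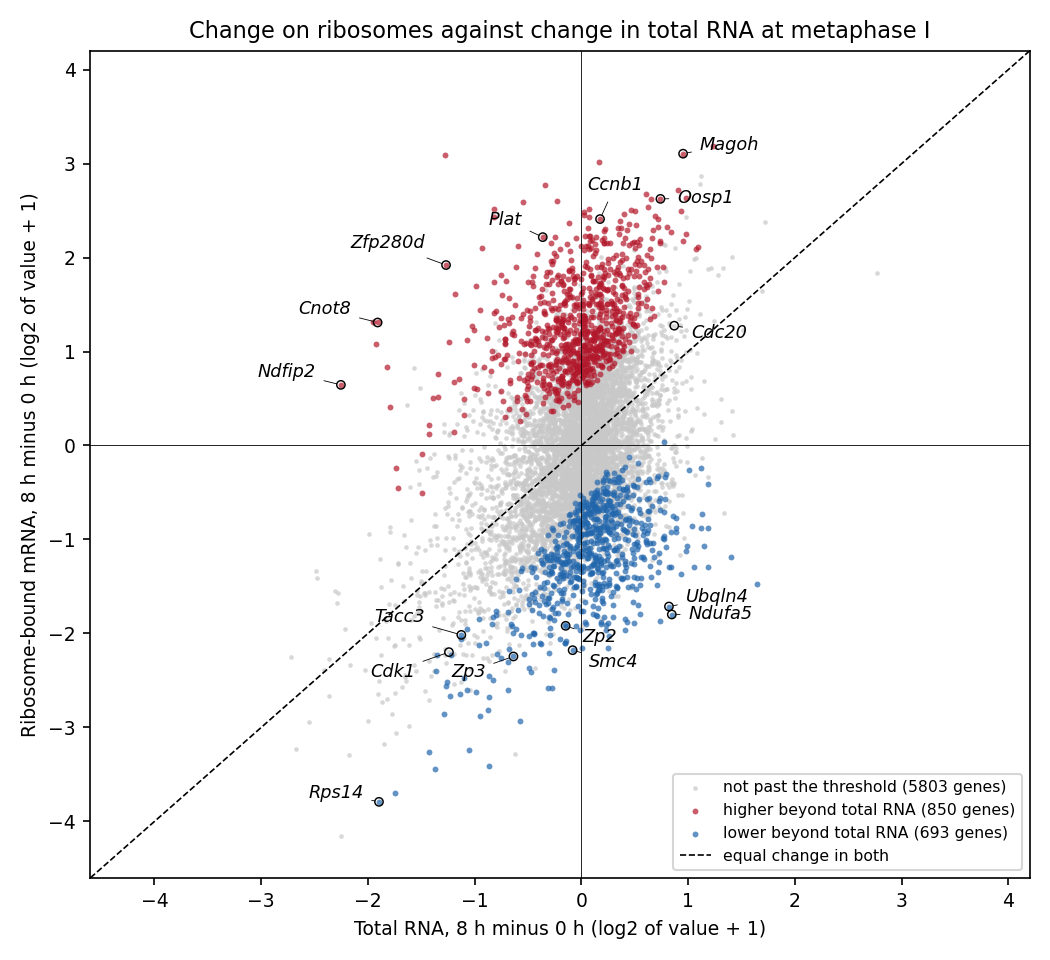
Each point is 1 of 7346 genes, placed by its change in total RNA (x axis) and on ribosomes (y axis), both 8 h minus 0 h on the log2(value + 1) scale. Most of the 850 red (higher) and 693 blue (lower) genes lie above and below the dashed line of equal change near an x of 0, and Cnot8, Ndfip2 and Zfp280d stand apart at the upper left, where total RNA fell.

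The 12 largest rises among named genes with a mean of at least 20 scaled CPM were Cnot8, Zfp280d, Ndfip2, Rsbn1, Slc35b3, Plat, Mfsd4b4, Tbc1d32, Stk38l, Dctd, Rnf219 and Arhgap20, with log2 changes beyond total RNA of 3.22 down to 2.39. The first 3 combined a rise on ribosomes with a fall in total RNA. Cnot8, a catalytic subunit of the CCR4-NOT deadenylase that shortens poly(A) tails (ENSMUSG00000020515.13, chr11:58104153-58118594, plus strand, mm10), had 88.0 and 103 scaled CPM on ribosomes at 8 h, against 38.4 and 37.3 at 0 h. Its total RNA was 20.2 and 10.4 at 8 h, against 59.8 and 55.0 at 0 h. The groups did not overlap in either kind of RNA, and they moved in opposite directions. The log2 change beyond total RNA was 3.22 ± 0.37 (SE; adjusted p = 1.29e-06 in limma). Ndfip2, an adaptor that recruits NEDD4-family ubiquitin ligases (ENSMUSG00000053253.16, chr14:105258573-105309298, plus strand), had 64.1 and 102 on ribosomes at 8 h, against 49.8 and 53.2 at 0 h. Its total RNA was 24.8 and 13.6 at 8 h, against 81.9 and 102 at 0 h. The libraries on ribosomes were higher at 8 h but unequal, and the total RNA groups lay far apart, so most of the log2 difference of 2.90 ± 0.36 (SE; adjusted p = 4.28e-06 in limma) came from the total RNA term of -2.25.

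Plat was the most abundant of the 12. It encodes tissue plasminogen activator, a secreted protease whose mRNA is the classic example of a dormant oocyte message (ENSMUSG00000031538.6, chr8:22757727-22782844, plus strand). On ribosomes it had 4728 and 4529 scaled CPM at 8 h, against 828 and 1194 at 0 h. In total RNA it had 1587 and 1434 at 8 h, against 1860 and 2024 at 0 h. Both ribosome-bound libraries at 8 h stood above both at 0 h, and the log2 change beyond total RNA was 2.58 ± 0.22 (SE; adjusted p = 3.80e-08 in limma). Rsbn1, Slc35b3 and Dctd (dCMP deaminase, which supplies dUMP for thymidylate synthesis) were low on ribosomes in prophase. Rsbn1 had 41.6 and 40.4 on ribosomes at 8 h, against 3.42 and 5.11 at 0 h. Slc35b3, a Golgi transporter of the sulfate donor PAPS, had 48.2 and 59.3 at 8 h, against 6.31 and 10.03 at 0 h. Dctd had 86.3 and 104 at 8 h, against 19.8 and 15.5 at 0 h. For these 3 genes the total RNA change was between -0.23 and 0.16 and passed the threshold in none. The total RNA libraries at 0 h were unequal in Rsbn1 (27.0 and 12.3) and Slc35b3 (41.9 and 17.2), and closer in Dctd (94.1 and 103). With 1 library left out, the change beyond total RNA was 2.32 to 3.388 in Rsbn1, 2.207 to 3.445 in Slc35b3 and 2.311 to 2.652 in Dctd. The others of the 12 lay between 2.39 and 2.56 apart from Zfp280d at 3.19. Mfsd4b4 belongs to a family of close copies between which reads can be split, so its value of 2.56 is uncertain.

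The 12 largest falls under the same rule were Ubqln4, Map1lc3a, Chchd10, Cox6c, Slc12a7, Ogdh, Gphn, Ift52, Ndufb11, Vps8, Cox14 and Calr, at -2.53 to -2.13. Cox6c, Cox14 and Ndufb11 belong to the respiratory chain or its assembly, Chchd10 to the mitochondrial intermembrane space, and Ogdh to the citric acid cycle. The share of genes for mitochondrial proteins among all genes was not counted. Ubqln4, a shuttle factor that carries ubiquitinated proteins to the proteasome (ENSMUSG00000008604.11, chr3:88553758-88569725, plus strand), had 16.2 and 13.1 scaled CPM on ribosomes at 8 h, against 48.3 and 52.1 at 0 h. Its total RNA was 23.5 and 42.3 at 8 h, against 15.1 and 20.2 at 0 h. The ribosome-bound groups were far apart and total RNA was somewhat higher at 8 h, giving a log2 change of -2.53 ± 0.49 (SE; adjusted p = 0.000653 in limma). Calr, the calcium-binding chaperone of the endoplasmic reticulum (ENSMUSG00000003814.8, chr8:84841850-84846934, minus strand), had 187 and 194 on ribosomes at 8 h, against 735 and 680 at 0 h. Its total RNA was 392 and 236 at 8 h, against 268 and 244 at 0 h, so that the total RNA groups overlapped. Its log2 change was -2.13 ± 0.25 (SE; adjusted p = 1.95e-06 in limma). Ogdh had 77.4 and 94.0 on ribosomes at 8 h, against 321 and 297 at 0 h, while its total RNA was 125 and 120 at 8 h, against 81.2 and 104 at 0 h. Map1lc3a (the autophagosome protein LC3A), Slc12a7 (a potassium-chloride cotransporter), Gphn (gephyrin), Ift52 (of intraflagellar transport) and Vps8 (of endosomal tethering) made up the rest. The calls of Chchd10 and Ift52 rest on single libraries. Chchd10 missed the threshold at -1.87 without replicate 1 of ribosome-bound RNA at 0 h and at -2.05 without replicate 1 of total RNA at 0 h. Ift52 missed it at -1.76 and -1.70 without replicate 1 of total RNA at 8 h and at 0 h.

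**Figure D2:**
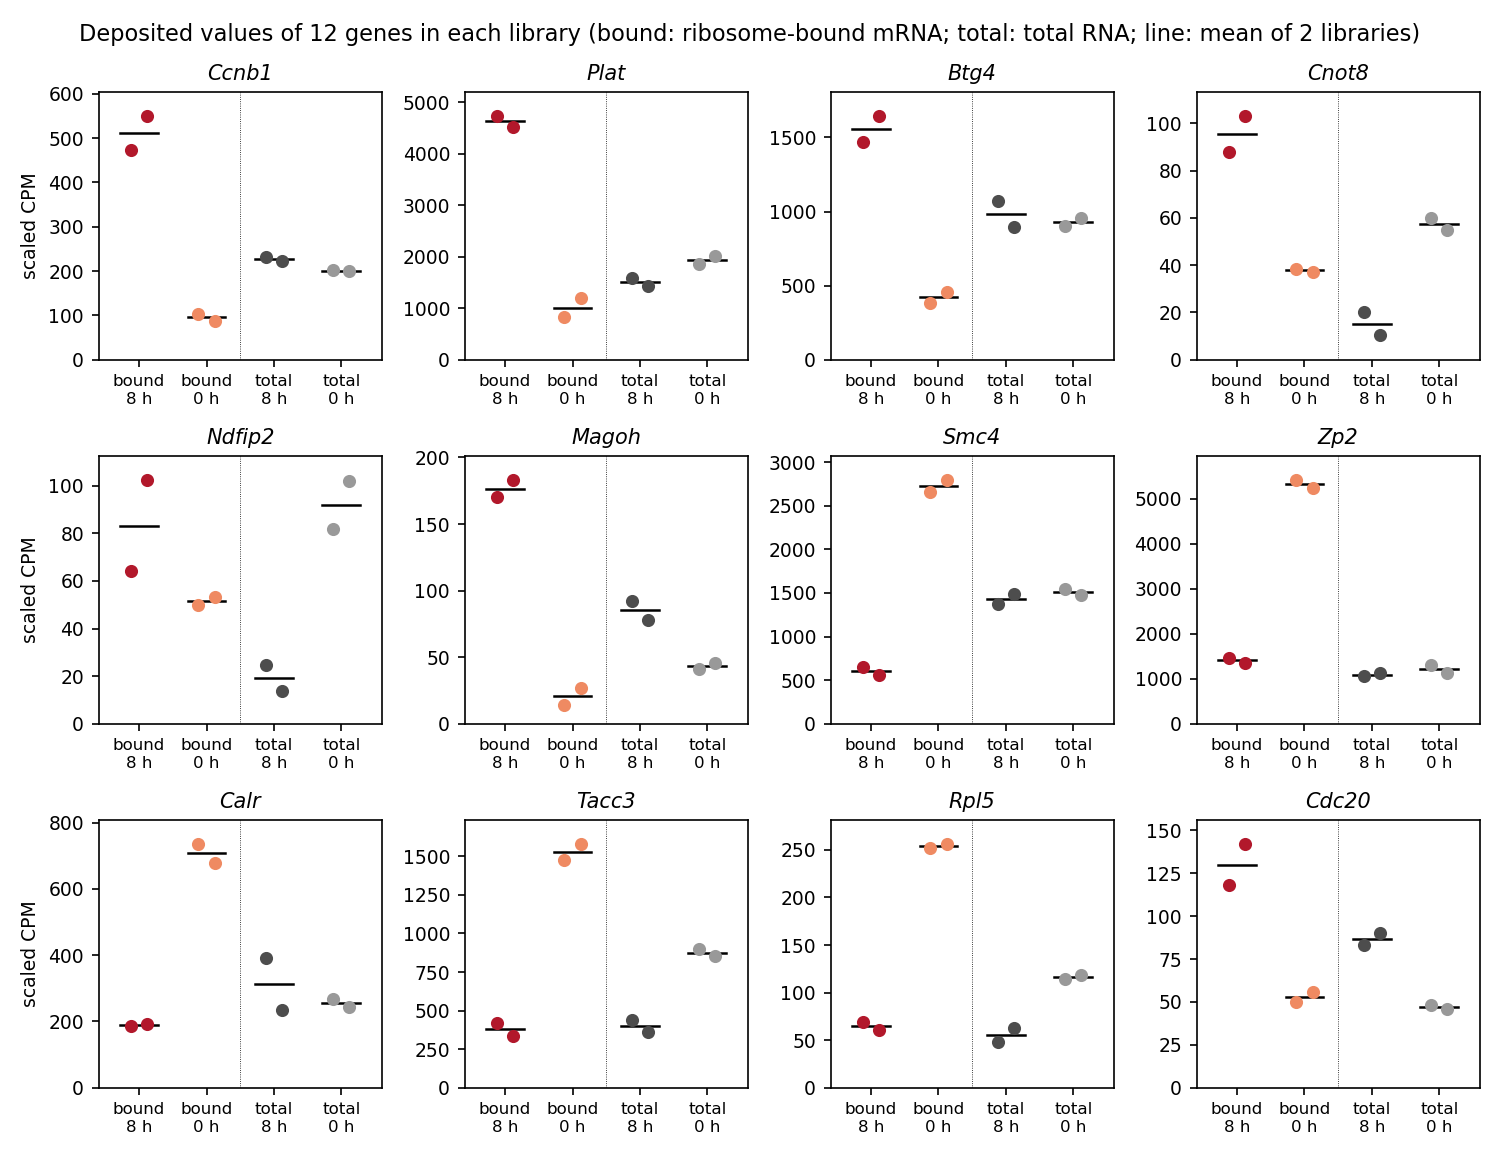
Deposited values (scaled CPM, y axis from 0) of 12 genes in each of the 8 libraries, with ribosome-bound mRNA at 8 h and 0 h left of the dotted line and total RNA at 8 h and 0 h right of it; points are libraries and lines the mean of 2. Cnot8 and Ndfip2 rise on ribosomes while total RNA falls, Magoh and Cdc20 rise in both, Smc4, Zp2 and Calr are lower at 8 h on ribosomes, and Tacc3 and Rpl5 fall in both.

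The 3′ ends of the genes that changed differed in sequence. In the 6663 genes whose chosen GENCODE vM21 transcript has a 3′ UTR of at least 100 bases, the last 100 bases before the annotated end were searched on the transcript strand for TTTTAT or TTTTAAT, the common forms of the cytoplasmic polyadenylation element, overlapping matches included. A match was found in 323 of 794 genes that were higher beyond total RNA (40.7%), in 57 of 632 that were lower (9.02%) and in 1045 of 5237 that did not pass (19.95%), against 1425 of all 6663 (21.4%). The shares with the Pumilio motif TGTANATA were 6.42%, 5.85% and 5.31% in the same 3 classes, against 5.49% of all. A canonical poly(A) signal AATAAA stood in 72.8% of the higher, 60.3% of the lower and 65.3% of the other genes. The 3′ UTR had a median of 1297 bases in higher genes, 707.5 in lower genes and 1080 in the others. Median GC content of the transcript was 45.5% in higher genes, 52.0% in lower genes and 49.5% in the others. Coding lengths differed less, with medians of 1740, 1686 and 1599 bases.

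The following windows show the element beside the poly(A) signal that ends each one. They are the 30 bases up to the end of the last poly(A) signal of the annotated 3′ UTR, with the element in capitals. The first 5 are those of the 12 largest rises with a match in this window. Of the 12, Zfp280d, Ndfip2, Slc35b3, Plat, Mfsd4b4 and Tbc1d32 had no match in it, and Cnot8 had no usable 3′ UTR in its chosen transcript. In the last 100 bases, however, Zfp280d, Plat, Mfsd4b4 and Tbc1d32 each had 1 match, and Ndfip2 and Slc35b3 had none. The next 4 are cell cycle and mRNA decay genes described further on, shown because they hold a match.
Rsbn1 (chr3:103966570-103966599, plus strand): ttttttcctgtaaagtatttTTTTAATaaa
Stk38l (chr6:146776507-146776536, plus strand): gcttgtagaacctagtatgtTTTTATtaaa
Dctd (chr8:48141621-48141650, plus strand): ctctgccagtattgttaaaaTTTTATtaaa
Rnf219 (chr14:104477553-104477582, minus strand): ctgcatgcttTTTTATgtgaattaaataaa
Arhgap20 (chr9:51853814-51853843, plus strand): cccagtaaaTTTTATactgtgaataataaa
Kif18a (chr2:109341703-109341732, plus strand): tgctaataTTTTATtacttggtatattaaa
Pan2 (chr10:128321301-128321330, plus strand): tgcttaaaacagcatgTTTTATaaaataaa
Anln (chr9:22332031-22332060, minus strand): attataaaagtaTTTTATgacataaataaa
Bub1b (chr2:118641547-118641576, plus strand): ctctcctttcactgtgtaTTTTATaataaa
In Rsbn1, Stk38l and Dctd the element runs into the poly(A) signal itself, and in the other 6 it lies before it. The windows of 4 of the largest falls held no match.
Ubqln4 (chr3:88569671-88569700, plus strand): ccaacacccactctggcctttgtaaataaa
Map1lc3a (chr2:155278022-155278051, plus strand): tgtggtcatttcctctgcagaaagaataaa
Cox6c (chr15:35931997-35932026, minus strand): gtgggctaaggaatagtttctttcaataaa
Vps8 (chr16:21644625-21644654, plus strand): aaatgggagcccaacctttgaaacaataaa
The match does not go with the direction in every gene. Rpl5, a ribosomal protein gene that was lower, has one, and Ccnb1, among the strongest risers, has none in the window or in the last 100 bases of its annotated transcript. The higher genes Fbxo43, Mos, Slbp, Dazl, Tpx2 and Wapl, described further on, also have none in either.
Rpl5 (chr5:107908959-107908988, plus strand): catgctatattaactgaactTTTTAATaaa
Ccnb1 (chr13:100778668-100778697, minus strand): gcaatatggagactttatgttgctaataaa
All windows are read from GENCODE vM21 transcripts (GRCm38, the mm10 assembly). A match is a string of letters and not a measured binding site, and the 3′ ends used by oocytes were not measured.

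The share of genes that rose went up with the number of matches. It was 8.99% of 5238 genes with 0 matches, 21.0% of 1198 with 1 match and 31.3% of 227 with 2 or more, and the share that fell was 10.98%, 4.51% and 1.32%. The median log2 change beyond total RNA in these classes was -0.12, 0.31 and 0.53. The medians of the ribosome-bound term were -0.15, 0.37 and 0.61 and those of the total RNA term 0.01, 0.05 and 0.07. Because the element is itself rich in A and T, genes were divided into 3 groups of similar size by the A+T content of the last 100 bases. In the high A+T group 29.5% of 742 genes with a match and 15.6% of 1207 without one were higher. In the middle group the shares were 17.8% of 512 and 10.4% of 1908, and in the low group 7.60% of 171 and 4.00% of 2123. A match thus went with a larger share of higher genes within each group, and the share also grew with A+T content among genes without one. These shares are descriptions over genes and carry no test. With each library's values corrected for transcript length and GC content by smooth curves, 1327 of 7102 genes passed, 683 higher and 644 lower, and 1084 of them also passed without this correction.

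**Figure D3:**
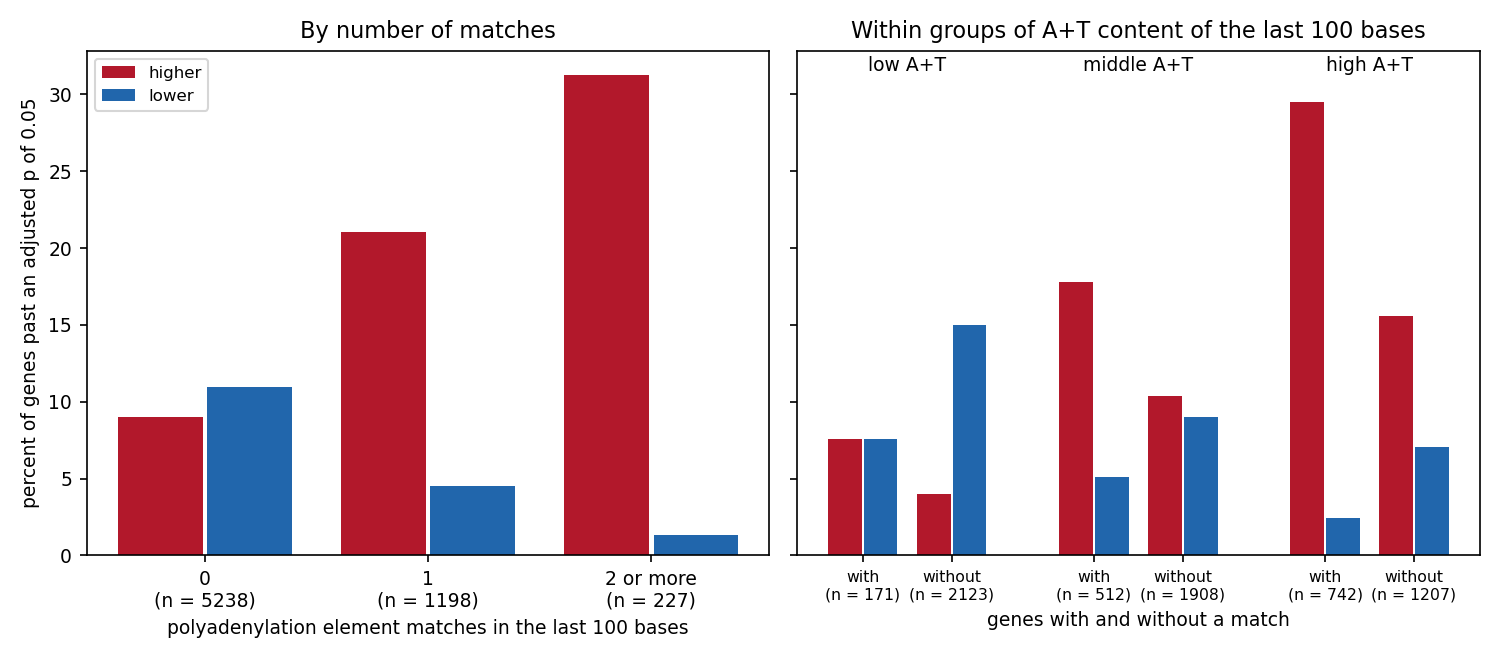
Percent of genes higher (red) and lower (blue) beyond total RNA at 8 h, by the number of TTTTAT or TTTTAAT matches in the last 100 bases of the 3′ UTR (left) and by presence of a match within groups of A+T content (right); n is the number of genes. The higher share is 8.99%, 21.0% and 31.3% with 0, 1 and 2 or more matches, and it is larger with a match in each of the 3 A+T groups.

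Gene lists drawn from the biology of the maturing oocyte were then counted, each beside the 11.6% of genes higher and 9.43% lower among all genes. A share near these is not a trait of its list. Examples are the lower shares of the kinetochore (9.4%) and cohesin (8.0%) lists and the higher share of proteasome genes (12.1%). Members named beyond the 2 with the smallest p per direction were chosen because they had passed, after their values were seen. The list of 32 measured genes described in the field as translationally activated in maturation had 22 higher and 3 lower, with a median of 1.37. It was drawn up with earlier results of these libraries known, and its direction is not independent evidence.

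**Figure D4:**
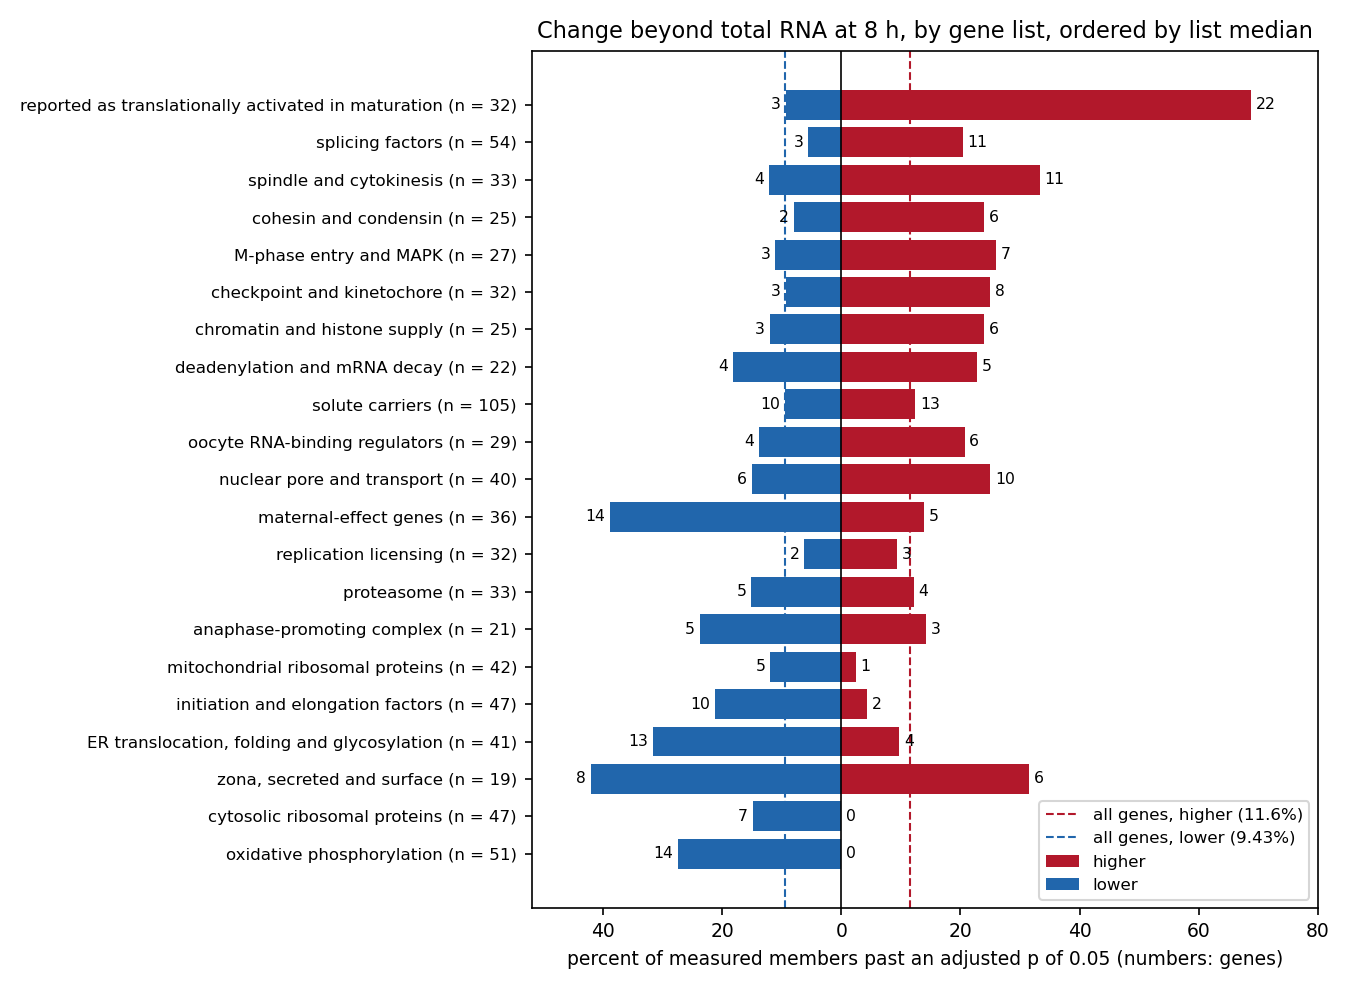
Percent of the measured members of each list that were higher (red, right) or lower (blue, left) beyond total RNA at 8 h; numbers beside bars are genes, n is the number measured, and dashed lines mark the 11.6% and 9.43% of all genes. Oxidative phosphorylation and cytosolic ribosomal protein genes have 14 and 7 lower members and 0 higher ones, and the literature list has 22 higher of 32.

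Of 27 genes of M-phase entry and of the MAPK cascade, 7 were higher (25.9%) and 3 lower (11.1%, near the share of all genes), with a median of 0.37. Those higher were Ccnb1, Cks2, Mos, Ccna2, Map2k1, Arpp19 and Mastl, and those lower included Mapk3 and Plk1. Ccnb1 encodes cyclin B1, the activating subunit of CDK1 (ENSMUSG00000041431.16, chr13:100778650-100786570, minus strand), and had 474 and 549 scaled CPM on ribosomes at 8 h, against 103 and 88.0 at 0 h. Its total RNA was 231 and 222 at 8 h, against 202 and 200 at 0 h. The ribosome-bound groups lay far apart and the log2 change was 2.23 ± 0.20 (SE; adjusted p = 4.39e-08 in limma). Mos, the kinase that starts the MAPK cascade in oocytes, had 379 and 381 on ribosomes at 8 h, against 128 and 97.9 at 0 h, and in total RNA 208 and 203 at 8 h, against 156 and 175 at 0 h. Its change was 1.44 ± 0.23 (SE; adjusted p = 6.56e-05 in limma). Map2k1, a kinase of the same cascade, was higher by 0.89. Mapk3, a MAP kinase, was lower. It had 124 and 123 on ribosomes at 8 h, against 329 and 305 at 0 h, while its total RNA of 306 and 238 at 8 h overlapped the 229 and 258 at 0 h. Its change was -1.503 ± 0.22 (SE; adjusted p = 2.58e-05 in limma).

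The other B-type cyclin genes, Ccnb2 and Ccnb3, did not pass, and neither did Wee2 and Cdk1. Ccnb2 had 251 and 198 scaled CPM on ribosomes at 8 h, against 202 and 227 at 0 h, with the groups overlapping, and a change of -0.72 ± 0.40 (SE; adjusted p = 0.206 in limma). Ccnb3 stood at 0.51 ± 0.25 (SE; adjusted p = 0.144 in limma), and Wee2, the oocyte kinase that inhibits CDK1, at 0.37 ± 0.17 (SE; adjusted p = 0.127 in limma). Cdk1 had 28.1 and 18.6 on ribosomes at 8 h, against 108 and 110 at 0 h, and 16.3 and 23.2 in total RNA at 8 h, against 46.7 and 48.0 at 0 h. Both terms passed as falls, -2.20 on ribosomes and -1.24 in total RNA, and the difference of -0.96 ± 0.35 (SE) lay just outside the threshold (adjusted p = 0.0558 in limma). It was inside at -1.24 without replicate 1 of ribosome-bound RNA at 8 h, and at -1.20 without replicate 1 of total RNA at 8 h.

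In the anaphase-promoting complex, the ubiquitin ligase that degrades cyclin B and securin, 3 of 21 genes were higher and 5 lower (median -0.30). Fbxo43, which encodes the oocyte inhibitor EMI2 that holds the egg in metaphase II, had 452 and 460 scaled CPM on ribosomes at 8 h, against 118 and 157 at 0 h. In total RNA it had 180 and 154 at 8 h, against 214 and 246 at 0 h. Its change was 2.20 ± 0.23 (SE; adjusted p = 4.93e-07 in limma), and the core subunits Cdc27 and Anapc10 were higher by 1.89 and 1.58. The core subunits Cdc16, Anapc7 and Anapc5 were at -2.05, -1.21 and -0.83, securin (Pttg1) at -0.96, and the activator Fzr1 at -1.15. The count of lower genes rests on few libraries: it was 1 without replicate 1 of total RNA at 8 h, 2 without replicate 2 of either ribosome-bound group or of total RNA at 0 h, and 3 without replicate 1 of total RNA at 0 h. Fzr1 missed the threshold at -0.97, -1.11 and -1.02 without replicate 1 of ribosome-bound RNA at 0 h, replicate 1 of total RNA at 8 h and replicate 2 of total RNA at 0 h. Cdc20, the activator used at the metaphase to anaphase transition, rose in both kinds of RNA, with 118 and 142 on ribosomes at 8 h, against 49.98 and 56.1 at 0 h. In total RNA it had 83.4 and 90.3 at 8 h, against 48.0 and 46.1 at 0 h. The groups did not overlap in either kind of RNA, and the difference of 0.41 ± 0.32 (SE) did not pass (adjusted p = 0.39 in limma).

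Kinetochore and checkpoint genes had 8 of 32 higher and 3 lower (median 0.32, and 0.16 without replicate 2 of ribosome-bound RNA at 0 h). Ndc80, the microtubule-binding subunit of the outer kinetochore, had 244 and 234 scaled CPM on ribosomes at 8 h, against 71.4 and 64.5 at 0 h, while total RNA was 85.4 and 89.5 at 8 h, against 103 and 118 at 0 h. Its change was 2.13 ± 0.24 (SE; adjusted p = 7.16e-07 in limma). Cenpc1, Cdca8, Cenpn, Cenph, Bub1b, Mad2l1 and Nuf2 were higher by 2.02 to 1.05. Zwilch, Birc5 and Kntc1 were lower, at -1.75, -1.35 and -0.65. Zwilch missed the threshold at -1.41 without replicate 2 of ribosome-bound RNA at 0 h or replicate 1 of total RNA at 8 h, and without the second of these the list had 1 lower gene. Spindle and cytokinesis genes had 11 of 33 higher and 4 lower (median 0.44). Kif18a, a kinesin that shortens microtubules at the chromosomes, had 191 and 175 on ribosomes at 8 h, against 33.3 and 43.5 at 0 h, and 76.1 and 73.0 in total RNA at 8 h, against 67.4 and 73.7 at 0 h. The ribosome-bound groups did not overlap, and the change was 2.15 ± 0.31 (SE; adjusted p = 2.60e-05 in limma). Anln (anillin, of the contractile ring) was at 1.68 and Tpx2, which activates Aurora A on spindle microtubules, at 0.79. The formin Fmn2 and its partner Spire1, which build the actin network that moves the spindle, were at 0.90 and 0.83. The 4 lower genes were Tacc3, Tuba1c, Cltc and Clasp1, at -0.89 to -0.66, and the list had 2 lower genes without replicate 2 of ribosome-bound RNA at 0 h or replicate 1 of total RNA at 8 h. Tacc3, a spindle pole protein, had 419 and 338 on ribosomes at 8 h, against 1475 and 1578 at 0 h, and 442 and 362 in total RNA at 8 h, against 896 and 851 at 0 h. Its total RNA also fell, by 1.13 on the log2 scale, and the ribosome-bound fall exceeded it by 0.89 ± 0.17 (SE; adjusted p = 0.000684 in limma).

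Cohesin and condensin genes had 6 of 25 higher and 2 lower (median 0.40). Ncapg2, a condensin II subunit, was higher by 2.23, Sgol2a, the shugoshin that protects centromeric cohesin in meiosis I, by 1.82, and Wapl, which releases cohesin, by 1.54. Smc4, the ATPase shared by both condensins (ENSMUSG00000034349.14, chr3:69004738-69034623, plus strand), went the other way. It had 651 and 555 scaled CPM on ribosomes at 8 h, against 2657 and 2790 at 0 h, while total RNA was 1369 and 1484 at 8 h, against 1541 and 1478 at 0 h. Total RNA overlapped and the ribosome-bound groups lay far apart, with a change of -2.10 ± 0.23 (SE; adjusted p = 5.31e-07 in limma). Replication licensing genes had 3 of 32 higher (Orc6, Mcm4 and Dbf4) and 2 lower (Rpa1 and Rpa2), shares near those of all genes. Orc6, a subunit of the origin recognition complex, had 139 and 151 on ribosomes at 8 h, against 38.9 and 24.8 at 0 h. Its total RNA of 80.7 and 98.8 at 8 h overlapped the 82.8 and 73.2 at 0 h, and its change was 1.99 ± 0.33 (SE; adjusted p = 0.000109 in limma). With the length and GC correction the medians of the M-phase, kinetochore, spindle and cohesin lists were 0.19, 0.07, 0.25 and 0.02. Of the licensing genes, 5 were higher without replicate 2 of ribosome-bound RNA at 0 h. Only 1 was lower without that library, without replicate 2 of ribosome-bound RNA at 8 h or without replicate 2 of total RNA at 0 h, and Rpa2 then stood at -0.71, -0.85 and -0.98.

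Deadenylation and decay genes had 5 of 22 higher and 4 lower (median 0.19). The median was 0.04 with the length and GC correction, 0.12 without replicate 2 of ribosome-bound RNA at 0 h, 0.11 without replicate 1 of total RNA at 8 h and 0.08 without replicate 2 of total RNA at 0 h. Btg4, the adaptor that brings the deadenylase to maternal mRNAs (ENSMUSG00000032056.9, chr9:51060901-51119875, plus strand), had 1468 and 1642 scaled CPM on ribosomes at 8 h, against 385 and 460 at 0 h. Its total RNA of 1072 and 893 at 8 h overlapped the 900 and 955 at 0 h, and the change was 1.80 ± 0.19 (SE; adjusted p = 4.06e-07 in limma). Pan2, a catalytic deadenylase, was at 1.99, Cnot6l, a CCR4 catalytic subunit, at 1.22, and Dcp1a, of the decapping complex, at 0.84. Cnot1, the scaffold of CCR4-NOT, went the other way, with 612 and 598 on ribosomes at 8 h, against 1050 and 1193 at 0 h, and 779 and 758 in total RNA at 8 h, against 647 and 651 at 0 h. Its change was -1.13 ± 0.18 (SE; adjusted p = 8.26e-05 in limma), and Cnot10, Tob2 and Edc4 were also lower. Cnot10 was at -1.46, and at -1.20 and -1.27 past no threshold without replicate 1 of ribosome-bound RNA at 0 h and replicate 2 of total RNA at 0 h. Without either of these, replicate 2 of ribosome-bound RNA at 8 h or replicate 1 of total RNA at 0 h, 2 genes of the list were lower. Oocyte RNA-binding regulators had 6 of 29 higher and 4 lower (median 0.00, and -0.11 to 0.15 when each library was left out). Dazl, a germ cell protein that promotes translation, had 573 and 596 on ribosomes at 8 h, against 163 and 154 at 0 h, and 374 and 377 in total RNA at 8 h, against 273 and 281 at 0 h. It was at 1.44 ± 0.21 (SE; adjusted p = 2.26e-05 in limma). Cpeb4 was at 1.19, and Papd4, a cytoplasmic poly(A) polymerase, at 1.29. The lower genes were Cpsf1 (-1.97), the oocyte poly(A)-binding protein Pabpc1l (-1.90), the mRNA-storage protein Ybx2 (-1.45) and Zar1 (-1.18). Cpeb1 fell on ribosomes by 0.65 (log2) and was at -0.30 ± 0.17 (SE) beyond total RNA, which did not pass (adjusted p = 0.227 in limma).

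Genes of the translation machinery that passed were mostly lower. Of 47 initiation and elongation factor genes 2 were higher (Eif2a and Eif2b1) and 10 lower (median -0.46), among them Eif3f, Eif1ax, Eef2, Eef1a1 and Eif4g1 at -1.87, -1.65, -1.28, -1.18 and -0.72. The lower count was 6 without replicate 1 of total RNA at 8 h, and Eif2a missed the threshold at 0.89 and 1.22 without replicate 2 of ribosome-bound or of total RNA at 0 h. Of 47 cytosolic ribosomal protein genes 0 were higher and 7 lower in limma, with a median of -0.76, and at an unadjusted p under 0.05 the counts were 0 and 15. The median was below 0 in both terms: it was -1.76 on ribosomes, where 41 fell, and -0.89 in total RNA, where 18 fell. Of all genes, 23.4% fell on ribosomes and 2.85% in total RNA. Rpl5 had 69.4 and 60.7 scaled CPM on ribosomes at 8 h, against 252 and 256 at 0 h, and 47.6 and 63.0 in total RNA at 8 h, against 114 and 118 at 0 h. Its change of -0.88 ± 0.24 (SE; adjusted p = 0.0105 in limma) missed the threshold at -0.79 without replicate 2 of ribosome-bound RNA at 8 h and at -0.69 without replicate 2 of total RNA at 8 h. The count of 7 is not firm. It was 1 without replicate 2 of ribosome-bound RNA at 8 h, replicate 1 of total RNA at 8 h or replicate 2 of total RNA at 0 h, and 2 without replicate 1 of ribosome-bound or total RNA at 0 h. With the length and GC correction the median was -0.26. Ribosomal protein genes have many processed copies, and how the authors' counting treated reads shared with them is not given in the sources used here.

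Genes of oxidative phosphorylation, the respiratory chain complexes and ATP synthase, had 0 of 51 higher and 14 lower in limma, with a median of -1.02, and at an unadjusted p under 0.05 the counts were 1 and 24. The medians of both terms were again below 0, at -1.69 on ribosomes, where 44 fell, and -0.68 in total RNA, where 9 fell. Among all genes the shares that fell were 23.4% on ribosomes and 2.85% in total RNA. Cox6c, a subunit of cytochrome c oxidase (ENSMUSG00000014313.14, chr15:35925886-35938246, minus strand), had 24.7 and 21.8 scaled CPM on ribosomes at 8 h, against 67.4 and 114 at 0 h, and 31.9 and 35.8 in total RNA at 8 h, against 23.9 and 25.9 at 0 h. The ribosome-bound values were lower and the total RNA values higher at 8 h without overlap, and the change was -2.30 ± 0.37 (SE; adjusted p = 8.40e-05 in limma). Ndufa5, of complex I, was at -2.64 ± 0.51 (SE; adjusted p = 0.000628 in limma), and Ndufb11, Ndufa1, Atp5e, Cox6b1 and Cox7a2 were at -2.18 to -1.93. The lower count was 8 without replicate 2 of ribosome-bound RNA at 0 h and 9 without replicate 1 of total RNA at 8 h, 1 gene was higher without replicate 1 of ribosome-bound RNA at 0 h, and the median stayed between -1.16 and -0.76 when each library was left out. With the length and GC correction it was -0.62. Of 42 mitochondrial ribosomal protein genes 1 was higher and 5 lower (median -0.43). This median was -0.27 with the length and GC correction, -0.14 without replicate 1 of ribosome-bound RNA at 0 h and -0.18 without replicate 1 of total RNA at 8 h. Of 33 proteasome genes 4 were higher and 5 lower (median -0.30), although 20 fell on ribosomes and 10 in total RNA. Their median was -0.15 and -0.14 without replicate 2 of ribosome-bound RNA at 8 h and at 0 h, and -0.47 without replicate 1 of total RNA at 0 h. Both lower counts were 1 without replicate 1 of total RNA at 8 h or replicate 2 of total RNA at 0 h, and 2 without replicate 2 of ribosome-bound RNA at 8 h. The mitochondrial list had 2 lower genes without replicate 1 of ribosome-bound RNA at 0 h, and 3 without replicate 2 of that group or replicate 1 of total RNA at 0 h. The proteasome list had 2 without replicate 2 of ribosome-bound RNA at 0 h or replicate 1 of total RNA at 0 h. Its higher count was 1 without replicate 2 of ribosome-bound RNA at 8 h and 2 without replicate 1 of total RNA at 8 h. The higher mitochondrial gene, Mrps31, did not pass without replicate 1 of ribosome-bound RNA at 8 h or at 0 h, replicate 2 of total RNA at 8 h or replicate 1 of total RNA at 0 h, at 0.80 to 1.03, and 2 genes of its list were higher without replicate 1 of total RNA at 8 h.

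Genes of the secretory pathway that passed were mostly lower. Of 41 genes for translocation into the endoplasmic reticulum, folding and glycosylation, 13 were lower and 4 higher (median -0.48), and in total RNA 0 of them passed in either direction (limma; 1 higher and 4 lower at an unadjusted p under 0.05; 3.72% of all genes passed there). The lower genes included Calr, the disulfide isomerases Pdia3 and Pdia4 at -1.67 and -0.76, Ddost and Rpn2 of the oligosaccharyltransferase at -1.82 and -1.75, and Srpr and Srp68 of signal recognition at -1.83 and -1.61. Ssr3, of the translocon-associated complex, was higher at 1.88. The lower count was 8 without replicate 1 of total RNA at 8 h or at 0 h. Zona, secreted and surface genes were split, with 6 of 19 higher and 8 lower (median -0.54, and -0.28 and -0.31 without replicate 1 of ribosome-bound and of total RNA at 0 h). Zp1, Zp2 and Zp3, which make up the zona pellucida, were lower. Zp2 (ENSMUSG00000030911.7, chr7:120126772-120145291, minus strand) had 1473 and 1348 scaled CPM on ribosomes at 8 h, against 5411 and 5252 at 0 h. Its total RNA of 1064 and 1121 at 8 h lay below the 1301 and 1125 at 0 h by a small margin, and the change was -1.77 ± 0.17 (SE; adjusted p = 9.68e-08 in limma). Zp1 was at -1.73 and Zp3 at -1.61. Izumo1r, the egg receptor for sperm IZUMO1, the oocyte growth factors Gdf9 and Bmp15, Kit and Oosp2 were lower too, at -1.24 to -0.68. Those higher were Plat, its inhibitor Serpine2 (0.96), and the oocyte-secreted or oocyte-specific Oosp1, Oosp3, Omt2a and Omt2b. Oosp1 had 1172 and 1443 on ribosomes at 8 h, against 187 and 236 at 0 h, and 829 and 708 in total RNA at 8 h, against 466 and 451 at 0 h, a change of 1.88 ± 0.20 (SE; adjusted p = 4.93e-07 in limma). Serpine2 is also on the granulosa list, whose summed level on ribosomes was 585 and 589 at 8 h, against 287 and 273 at 0 h; its own values on ribosomes were 368 and 371 at 8 h, against 96.1 and 125 at 0 h, and its part in that shift was not tested. Omt2a and Omt2b are close copies, and reads can be split between them.

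Of 36 maternal-effect genes, whose products serve the embryo, 14 were lower and 5 higher (median -0.21). The median was -0.44 with the length and GC correction, -0.09 and -0.38 without replicates 1 and 2 of ribosome-bound RNA at 0 h, and -0.12 and -0.34 without replicates 1 and 2 of total RNA at 8 h. Dnmt3l, a cofactor of de novo DNA methylation, had 43.6 and 43.7 scaled CPM on ribosomes at 8 h, against 161 and 171 at 0 h, while its total RNA was 115 and 98.7 at 8 h, against 91.9 and 94.7 at 0 h. Its change was -2.09 ± 0.28 (SE; adjusted p = 8.64e-06 in limma). Uhrf1, which recruits DNMT1, was at -1.44, and the subcortical complex genes Nlrp5, Tle6 and Padi6 were at -0.72, -0.87 and -0.81. Those higher were Eed, a Polycomb subunit, at 1.85, and Ctcf, Spin1, Zfp57 and Tet3 at 0.76 to 0.58. Genes of chromatin and histone supply had 6 of 25 higher and 3 lower (median 0.29, and 0.19 with the length and GC correction). Slbp, the stem-loop protein needed for histone mRNA translation, had 1174 and 1129 on ribosomes at 8 h, against 263 and 250 at 0 h, and 522 and 477 in total RNA at 8 h, against 369 and 338 at 0 h. Its change was 1.67 ± 0.18 (SE; adjusted p = 5.31e-07 in limma). H2afx, H3f3b and H1foo, the oocyte linker histone, were higher by 1.33, 1.22 and 0.89. The 3 lower genes of this list became 1 without replicate 2 of ribosome-bound RNA at 8 h or at 0 h, replicate 1 of total RNA at 8 h or replicate 2 of total RNA at 0 h, with Hdac2, at -0.81, then between -0.79 and -0.59.

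Among other cell functions, splicing factors had 11 of 54 higher and 3 lower (median 0.45), among them Srsf7 at 2.00 and Hnrnpa2b1 at 1.65. The higher count was 7 without replicate 2 of ribosome-bound RNA at 8 h. The lower count was 1 without replicate 1 of ribosome-bound RNA at 8 h, replicate 2 of ribosome-bound RNA at 0 h or replicate 1 of either total RNA group. Magoh, of the exon junction complex, had 170 and 183 scaled CPM on ribosomes at 8 h, against 14.4 and 26.7 at 0 h, and 92.5 and 78.2 in total RNA at 8 h, against 41.2 and 45.9 at 0 h. Both kinds of RNA rose without overlap, and the ribosome-bound rise exceeded the other by 2.15 ± 0.32 (SE; adjusted p = 4.10e-05 in limma). Nuclear pore and transport genes had 10 of 40 higher and 6 lower (median -0.09). That median was 0.08 with the length and GC correction, and 0.02, 0.23 and 0.02 without replicate 2 of ribosome-bound RNA at 8 h, replicate 2 of total RNA at 8 h and replicate 1 of total RNA at 0 h. Without replicate 1 of ribosome-bound RNA at 0 h it was -0.05. Most of the higher ones were pore components such as Nup160, Nup54 and Nup37 (1.04, 1.01 and 1.17), with the import receptors Kpna3, Tnpo1 and Ipo8. The lower ones were the scaffold nucleoporin Nup188 (-1.25) and the transport receptors Ipo9, Xpo5, Xpo7, Kpna6 and Xpo1. The higher count was 6 without replicate 2 of ribosome-bound RNA at 8 h and 5 without replicate 2 of total RNA at 0 h. Solute carriers had 13 of 105 higher and 10 lower (median 0.15, and 0.23 without replicate 2 of ribosome-bound RNA at 8 h), shares close to those of all genes. The cystine transporter Slc7a11 and the zinc transporter Slc39a10 were at 1.64 and 1.56, and the zinc transporter Slc39a6 at -1.17. Their lower count was 6 without replicate 2 of ribosome-bound RNA at 8 h or replicate 1 of either total RNA group.

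In some genes total RNA moved as well. The 29 higher genes whose total RNA fell included Eed, Mapk6, Casp8ap2, N4bp2 and Tcea1 beside Cnot8, Zfp280d and Ndfip2, and 16 of them rose on ribosomes. For the other 13 the change on ribosomes did not pass the test. Cks2, a CDK-binding protein, was one of these, with 24.3 and 32.5 scaled CPM on ribosomes at 8 h, overlapping the 45.9 and 24.1 at 0 h, and 8.72 and 7.73 in total RNA at 8 h, against 28.1 and 31.2 at 0 h. Its change was 1.496 ± 0.503 (SE; adjusted p = 0.0349 in limma). The 9 lower genes whose total RNA rose included Furin, Wbp11, Camsap3 and Atp11b, which also fell on ribosomes. Furin, a proprotein protease, had 237 and 160 on ribosomes at 8 h, against 319 and 292 at 0 h, and 459 and 399 in total RNA at 8 h, against 266 and 273 at 0 h. The groups did not overlap in either kind of RNA, and the change was -1.31 ± 0.24 (SE; adjusted p = 0.000316 in limma). These genes were chosen after their values were seen. Whether poly(A) RNA was selected is not given in the sources used here; with such a selection a change in tail length would alter recovery in total RNA as well as on ribosomes, and this was not tested.

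The earlier times used the same 0 h libraries and are given side by side. Beyond total RNA, 7 genes (0.0953%) changed at 2 h, 1 higher (0.0136%) and 6 lower (0.0817%). At 4 h 375 genes (5.1%) changed, 227 higher (3.09%) and 148 lower (2.01%). At 6 h it was 860 genes (11.7%), 539 higher (7.34%) and 321 lower (4.37%), and at 8 h the 1543 described. At 2 h only Slbp was higher, at 0.94, and the 6 lower genes included Eif5b, Izumo1r and Nrd1 at -1.51, -1.40 and -1.35. With no adjustment 766 genes had a p under 0.05 at 2 h. For the 850 genes higher at 8 h the median change was 0.40 at 2 h, 0.69 at 4 h, 0.96 at 6 h and 1.26 at 8 h. For the 693 lower genes it was -0.45, -0.65, -0.79 and -1.19. Both sets were selected at 8 h against the same 0 h libraries, so scatter at 0 h moves their earlier medians the same way. The course of these medians is thus partly built in. Of the higher genes 1, 207 and 469 passed as higher at 2, 4 and 6 h, and of the lower genes 6, 127 and 265 passed as lower. Individual genes followed different courses. Smc4 stood at -1.05, -1.77, -1.97 and -2.10 at 2, 4, 6 and 8 h, and Magoh at 1.49, 1.90, 2.19 and 2.15. Dazl stood at 0.16, 0.77, 1.499 and 1.44. Fbxo43, by contrast, stood at -0.04, 0.42, 1.41 and 2.20, and Tacc3 at -0.08, 0.00, -0.51 and -0.89, with only the last of these past the threshold. Eif5b had its lowest value at 2 h and was at -0.77 by 8 h, where it missed the threshold at -0.58, -0.68 and -0.70 without replicate 1 of ribosome-bound RNA at 8 h, replicate 2 of ribosome-bound RNA at 0 h and replicate 2 of total RNA at 0 h.

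**Figure D5:**
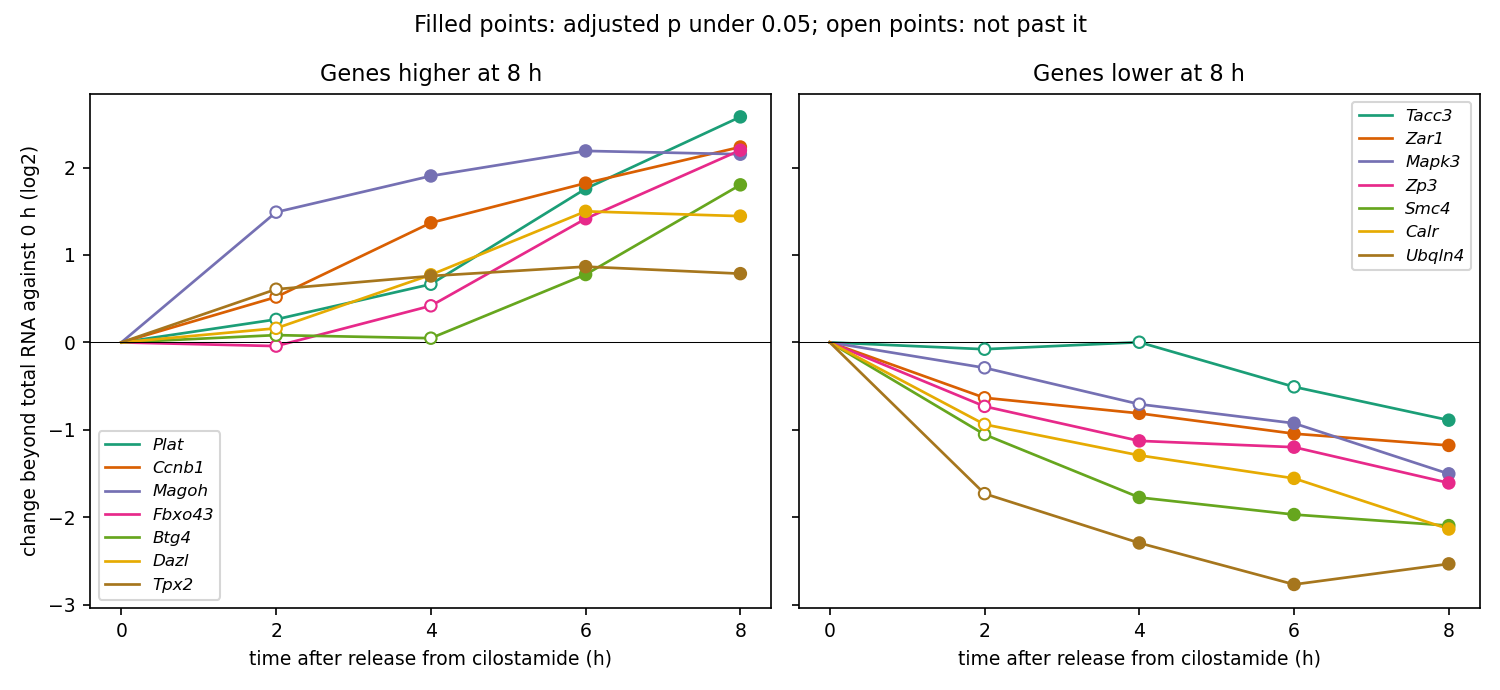
Change beyond total RNA against 0 h (log2, y axis) at 0, 2, 4, 6 and 8 h after release from cilostamide (x axis) for 7 genes higher at 8 h (left) and 7 lower at 8 h (right); filled points passed an adjusted p of 0.05 and 0 h is 0 by definition. Magoh and Smc4 are near their 8 h value by 4 h, whereas Btg4 is still at 0.05 at 4 h and reaches 1.80 at 8 h.

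The step between late prometaphase and metaphase I was tested directly, as the change beyond total RNA at 8 h minus that at 6 h, which does not involve the 0 h libraries. In limma 2 of 7346 genes (0.0272%) were higher and 0 lower at 8 h against 6 h, while 304 higher and 281 lower genes had an unadjusted p under 0.05. The 2 were Btg4 and the atypical MAP kinase Mapk6. Btg4 had 1468 and 1642 scaled CPM on ribosomes at 8 h, against 929 and 821 at 6 h, and its total RNA was 1072 and 893 at 8 h, against 1027 and 1225 at 6 h. The ribosome-bound groups did not overlap but the total RNA groups did, and the difference was 1.03 ± 0.19 (SE; adjusted p = 0.0459 in limma). Mapk6 had 215 and 257 on ribosomes at 8 h, against 220 and 219 at 6 h, and 110 and 121 in total RNA at 8 h, against 221 and 261 at 6 h. Its ribosome-bound groups overlapped and its total RNA was lower at 8 h in both libraries, for a difference of 1.15 ± 0.21 (SE; adjusted p = 0.0459 in limma). Mapk6 was chosen after its value was seen. Both genes lay just inside the threshold, and neither call was checked under other settings or with a library left out.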

How the data were processed

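Ribosome-bound mRNA and total RNA of 200 oocytes per sample were sequenced at 0, 2, 4, 6 and 8 h. Per the submitters' processing notes reads were handled with Trimmomatic 0.36, HISAT2 and HTSeq among other tools (FastQC, SAMtools, limma, edgeR) and the genome was mm10. The deposited values are a signal the authors left in scaled CPM, 1 table per kind of RNA: totals per library were 968768 to 1052767, and 10 of 20 were above what plain CPM allows. In each library 100% of values were whole multiples of 1 step (within 0.01 of a read), from which depth was inferred. The plan had assumed plain CPM, and the test on log2 values was kept.

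Groups came from the titles, the letters A and B numbering the replicates 1 and 2. Values were taken as log2(value + 1), so fold changes of low genes are understated, for genes that reached 1 in 2 or more libraries of each kind, which all 7346 did. Group means of all 20 libraries in 10 groups were fitted with limma 3.58.1 under R 4.3.3, the variances being moderated by empirical Bayes along a trend with mean level. Tests were two-sided, adjusted by Benjamini-Hochberg over all 7346 genes. The model was also run on values simulated with independent normal scatter, as it assumes. That run checks the fitting and cannot show whether these libraries meet the assumption.

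Genes were matched to GENCODE vM21 by ID: 5270 had the same version, 2066 another and 10 were not found. 1 coding transcript per gene (7102 genes) gave lengths, GC content and 3′ UTRs. Whether counting used strand is not given in the sources used here, and overlapping genes cannot be told apart. Named genes were the 12 largest changes each way (mean of at least 20, 1 sign in all 16 choices of libraries, no unnamed models), up to 2 members per list and direction with the smallest p, a panel of 22 genes and the 3 largest each way at other times. The members and lists were chosen with earlier results of these data known. Some results are not reported here.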

Additional observations from a re-analysis of the deposited data

Results flagged for a closer look

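For 2 genes the change beyond total RNA differed between 8 h and 6 h by a test of that difference (limma, Benjamini-Hochberg adjusted p = 0.0459 for each, 2 libraries per group). Btg4 stood at 1.80 against 0 h at 8 h and at 0.78 at 6 h, a difference of 1.03. Mapk6 stood at 1.88 at 8 h and at 0.73 at 6 h, a difference of 1.15. In Btg4 the ribosome-bound libraries at 8 h lay above those at 6 h, and in Mapk6 the total RNA libraries at 8 h lay below those at 6 h. Groups of 2 libraries were too small to look for single samples far from the others. The other settings given below were not applied to the difference between 8 h and 6 h.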

How the results depend on the processing

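The count of 1543 changed genes (850 higher, 693 lower) lay between 1327 and 1551 with another pseudocount (0.5 or 5), no filter, a mean of at least 10, spread weighted by RNA kind, libraries centred on their medians (912 higher and 612 lower) or the length and GC correction. It was 1141 from the 8 libraries at 0 h and 8 h alone. Leaving out 1 library at a time gave 1084 to 1439 genes, 620 to 827 higher and 445 to 664 lower. No gene passed in opposite directions under any of these settings. Same-lettered replicates did not deviate together (correlations of -0.08 to 0.04 at the 5 times), so the letters are only names. With a replicate block of letter 1534 genes passed. A replicate block by time and letter gave 944 genes (532 higher, 412 lower), and with the length and GC correction 676 (357 higher, 319 lower). The cause was not tested. The median of all genes was 0.02 after centring, -0.04 with the length and GC correction, with or without the block by time and letter, and -0.04 to -0.02 over leave-one-out fits. Of 110 named genes called at 8 h, 18 lost the call in at least 1 of 8 leave-one-out fits, 34 in at least 1 of 3 block fits and 9 under the other settings, and 0 changed sign. These 110 are genes picked by the naming rules given above. Other genes named in the text, such as Cks2 and Furin, were not followed gene by gene in these fits. Count tests in edgeR or DESeq2 were not run, because the deposited values are not counts. Depth was only inferred, and counting error was not separated from the spread between replicates.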
